A study of Mus musculus with 2 samples.

Results

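The sites described here are 884 accessible regions of the mouse hippocampus that were tall in both replicates of a DNase-seq experiment and yet held no footprint in either. They were selected on measured values: a peak of replicate 1 had to overlap a peak of replicate 2, both had to reach a deposited height of 0.64, and no footprint of either replicate could touch the replicate 1 peak. Of 57897 tall shared peaks, 884 met the rule, which is 1.53% of them. The series held 1 group of 2 samples, labelled biological replicates 1 and 2, with no treatment, no altered genotype and no second condition. Each was a pool of 2 biosamples of the tissue labelled layer of hippocampus, with no layer named, from males aged 8 to 10 months, labelled B6CASTF1/J (the hybrid of C57BL/6J and CAST/EiJ). Both samples carry the same donor label, and it is not stated whether the pools share animals, so the spread between them may be partly technical. With 1 group there was no test between conditions, and the sites were compared with footprinted tall shared peaks weighted to the same heights and lengths (the comparison peaks below).

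DNase I cuts DNA that is free of nucleosomes, so a cluster of cuts, called as a peak, marks an accessible promoter, enhancer or insulator. A protein that stays bound shields a short stretch inside the peak, and such a protected stretch is called as a footprint. At an active promoter the open stretch at the start site is bound by general and sequence-specific factors, and positioned nucleosomes lie downstream of it in the transcribed region. In the hippocampus, accessible distal elements of neurons are known for E-boxes of the NEUROD family and for sites of NFI, AP-1 and MEF2 factors, while CTCF sites give some of the clearest footprints in any tissue.

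The sequences below show what the sites look like beside footprinted peaks of the same kind. Each is the plus strand of the mm10 build, read 5′ to 3′, and capitals mark bases inside a footprint of either replicate, so the sites themselves have none. The promoter sites are the tallest of at most 300 bp that held no repeated 36-base word and overlapped no UTR. Site 3 (chr9:47529661-47529900) lies 273 bp from the start site of Cadm1, site 5 (chr19:28011841-28011980) 701 bp from that of Rfx3, and site 6 (chr9:85748781-85749060) 274 bp from that of Ibtk. The fourth sequence is a footprinted promoter peak near in height and length to site 3, 69 bp from the start site of Hspg2 (chr4:137468461-137468700).
Site 3: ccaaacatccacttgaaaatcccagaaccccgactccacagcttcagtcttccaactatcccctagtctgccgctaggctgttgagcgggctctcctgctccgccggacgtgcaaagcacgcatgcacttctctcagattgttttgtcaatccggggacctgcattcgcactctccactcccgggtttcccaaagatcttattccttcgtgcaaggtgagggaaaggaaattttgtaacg
Site 5: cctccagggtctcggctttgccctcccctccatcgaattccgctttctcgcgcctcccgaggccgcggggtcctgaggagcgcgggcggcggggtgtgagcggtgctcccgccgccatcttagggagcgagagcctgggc
Site 6: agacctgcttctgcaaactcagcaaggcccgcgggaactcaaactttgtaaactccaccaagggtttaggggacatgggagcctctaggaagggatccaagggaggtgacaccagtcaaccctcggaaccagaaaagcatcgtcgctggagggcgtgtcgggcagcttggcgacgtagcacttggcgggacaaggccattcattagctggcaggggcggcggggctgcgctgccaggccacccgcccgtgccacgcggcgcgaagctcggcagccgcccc
Footprinted promoter peak: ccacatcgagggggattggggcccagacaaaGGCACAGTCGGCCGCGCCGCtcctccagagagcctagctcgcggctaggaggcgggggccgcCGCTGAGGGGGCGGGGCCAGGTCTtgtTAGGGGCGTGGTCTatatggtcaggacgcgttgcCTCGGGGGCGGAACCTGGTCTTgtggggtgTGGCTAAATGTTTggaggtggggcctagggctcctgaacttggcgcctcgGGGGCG

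Among introns, the tallest sites under the same limits were site 7 (chr17:5310681-5310780) in Arid1b and site 60 (chr1:46852761-46852980) in Slc39a10. The footprinted intron peak near in height and length to site 7 (chr6:31156001-31156100) is shown after them.
Site 7: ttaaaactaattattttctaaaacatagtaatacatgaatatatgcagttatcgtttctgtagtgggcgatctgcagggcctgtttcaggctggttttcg
Site 60: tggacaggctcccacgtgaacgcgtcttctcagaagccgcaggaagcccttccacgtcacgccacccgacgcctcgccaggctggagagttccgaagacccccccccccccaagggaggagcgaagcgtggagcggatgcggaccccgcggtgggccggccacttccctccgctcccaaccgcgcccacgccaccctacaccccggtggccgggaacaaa
Footprinted intron peak: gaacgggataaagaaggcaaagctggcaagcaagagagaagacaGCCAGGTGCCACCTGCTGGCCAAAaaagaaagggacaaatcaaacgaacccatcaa

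Among intergenic sequence, site 1 (chr19:5002141-5002280) is the tallest of all, and site 4 (chr13:107450001-107450060) had no other peak within 1000 bp. The footprinted peak near in height and length to site 1 (chr1:134344641-134344780) and the taller peak next to site 1 (chr19:5001801-5002060, chosen after its values were seen) follow.
Site 1: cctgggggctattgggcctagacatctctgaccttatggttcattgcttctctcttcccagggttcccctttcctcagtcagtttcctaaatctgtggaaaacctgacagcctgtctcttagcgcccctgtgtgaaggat
Site 4: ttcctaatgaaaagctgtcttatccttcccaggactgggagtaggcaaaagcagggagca
Footprinted intergenic peak: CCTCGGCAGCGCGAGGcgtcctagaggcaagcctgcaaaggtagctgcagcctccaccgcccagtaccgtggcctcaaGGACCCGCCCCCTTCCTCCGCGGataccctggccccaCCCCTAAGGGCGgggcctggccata
Neighbour of site 1: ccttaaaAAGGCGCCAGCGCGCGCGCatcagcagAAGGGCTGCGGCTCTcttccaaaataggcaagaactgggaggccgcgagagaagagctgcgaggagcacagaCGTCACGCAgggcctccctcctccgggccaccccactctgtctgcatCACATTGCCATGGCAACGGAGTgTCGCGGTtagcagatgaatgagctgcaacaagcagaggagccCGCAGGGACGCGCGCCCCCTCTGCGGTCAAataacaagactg

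In the footprinted promoter peak 41.2% of the bases lay inside footprints, and the match to the SP/KLF letters GGGGCGGGG, which bind zinc finger factors of GC boxes, lay wholly inside a footprint. The footprinted intron peak had 24 of its 100 bases in 1 footprint stretch, and that stretch held all 14 bases of a match to the CTCF pattern. The neighbour of site 1 had 102 of its 260 bases in footprints, among them all 9 bases of a match to the RFX letters GTTGCCATG. The sites also held matches, at site 5 to the YY1 letters AAGATGGCG and at site 60 to the EGR letters GCGTGGGCG, with no footprint over them. A match to letters describes the sequence and does not show that a factor binds there.

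The longer peak list of replicate 1 held 144270 peaks and that of replicate 2 held 124426, of which 72543 and 61917 were tall. The footprint lists held 348892 and 327771 rows. The number of cuts per sample is not given in the files, so the depth is unknown, and all intervals given below are exact (Clopper-Pearson) 95% binomial intervals that cover counting error only. Tall shared promoter peaks were present at 11635 of 21827 protein-coding genes (53.3%). Of genes that mark neurons, 10 of 10 excitatory neuron genes had one, 6 of 8 of dentate granule cells, 6 of 7 of CA1 and 7 of 8 of CA2 and CA3 pyramidal cells, and 3 of 12 of inhibitory neurons. Of other cell types it was 7 of 10 oligodendrocyte genes, 5 of 10 of astrocytes, 3 of 6 of oligodendrocyte precursors, 1 of 8 of microglia, 0 of 7 of endothelium, 1 of 6 of mural cells and fibroblasts and 2 of 5 of choroid plexus and ependyma.

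The 884 sites are rows of the replicate 1 list and some overlap one another: 109 overlapped another peak of that list, 48 overlapped another of the sites, and the 884 covered 859 separate regions with 851 separate replicate 2 partners. A footprinted tall shared peak was overlapped in part by 48 sites, and these groups may share sites. A footprint touched the replicate 2 partner, outside the replicate 1 peak, at 191 sites. The nearest footprint lay within 10 bp of the edge at 45 sites and within 50 bp at 140, so for these a small shift of the peak edge would change the selection. Just inside the height limit the lower of the replicate heights was 0.643, and just outside it was 0.639. A further 5411 shared peaks without a footprint were below that limit, and 851 tall shared peaks had 1 footprint in all.

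The heights and lengths below belong to the selection and are a description. The site heights ran from 0.643 through a median of 0.912 to 3.37 in replicate 1, and from 0.646 through 0.817 to 2.83 in replicate 2. All tall shared peaks with a footprint had medians of 1.44 and 1.27 and reached 51.1 and 57.1. The sites therefore sat low among tall peaks. Of peaks with a mean height under 0.8, 4.66% had no footprint, against 0.281% at 1.5 to 2 and 1 of 9853 over 3. Site length ran from 38 to 920 bp with a median of 280 bp. The share without a footprint was lowest for peaks of 150 to 200 bp (0.380%, interval 0.261 to 0.533) and higher on both sides, with 12.2% (9.85 to 14.9) under 100 bp and 5.14% (3.74 to 6.86) at 600 bp or more.

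**Figure D1:**
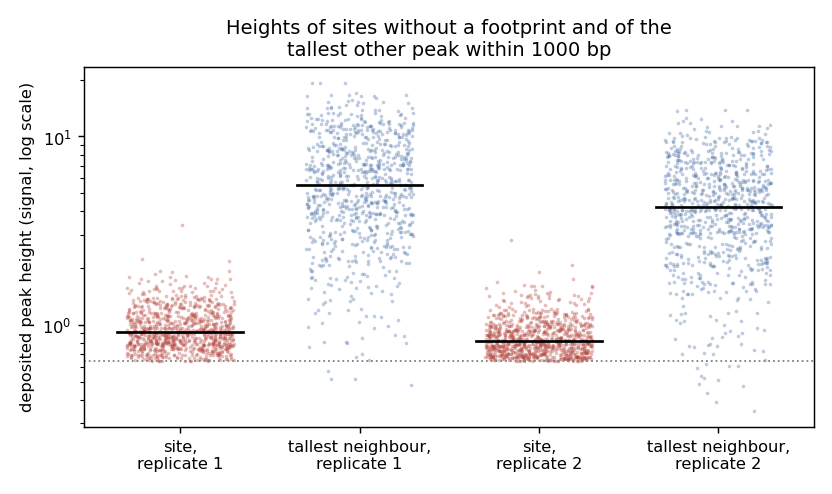
Deposited peak height (signal, log scale) of each site and of the tallest other peak within 1000 bp, in each replicate. Points are peaks, black lines are medians and the dotted line is the height limit of 0.64. The site medians were 0.912 and 0.817, and the medians of all neighbours present were 5.50 and 4.24.

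Most of the sites lay at promoters. A promoter peak was within 1000 bp of the start site of a protein-coding gene, and 690 of the 884 sites (78.1%, interval 75.2 to 80.7) met this, against 26.5% of the comparison peaks. The share was higher in the sites on 20 of 20 chromosomes. Only 10.2% of the sites lay in introns against 39.3% of the comparison, 7.24% against 24.6% in intergenic sequence and 4.52% against 9.50% in exons. Counted the other way, 3.96% of the 17412 tall shared promoter peaks had no footprint, and 0.479% of the 40485 distal ones. Chromosome X held 12 of the sites and chromosome Y none of its 11 tall shared peaks, and the share per chromosome otherwise ran from 1.02% on chromosome 8 to 2.25% on chromosome 19.

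**Figure D2:**
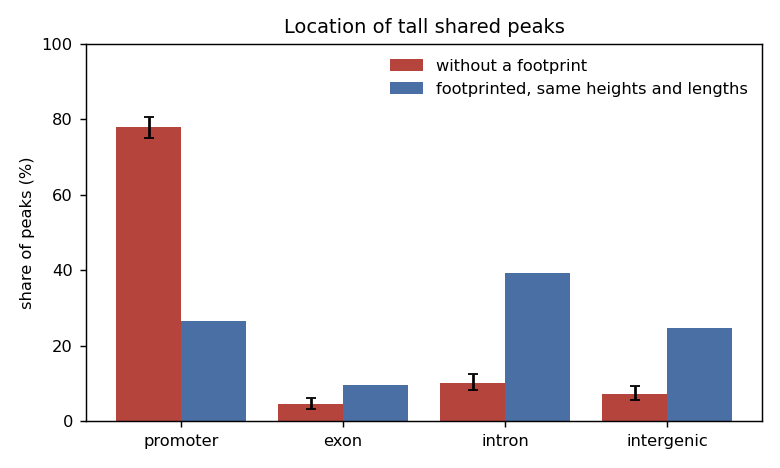
Share of peaks (%) in each location for the 884 sites without a footprint (red, bars are exact 95% binomial intervals) and for footprinted tall shared peaks weighted to the same heights and lengths (blue). The promoter share was 78.1% in the sites and 26.5% in the comparison.

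Few of the promoter sites sat on the start site, and most lay beside it in the transcribed direction. Of 690 promoter sites, 74 overlapped a start site (10.7%, interval 8.52 to 13.3), against 33.7% of footprinted promoter peaks of the same heights and lengths. Their centres lay a median of 450 bp downstream, and those of the comparison 99 bp downstream. In all, 554 (80.3%, 77.1 to 83.2) were downstream against 60.9%. Against footprinted promoter peaks that also had a taller neighbour the difference was smaller: 10.7% (8.49 to 13.3) of 671 sites overlapped a start site against 17.4%, the median position was 450 bp (416 to 473) against 358 bp downstream, and the median distance from the start site was 340 bp (322 to 357) against 344 bp. The stretch from 200 to 800 bp downstream held 64.1% of the promoter sites and 32.95% of the comparison. The position profile of all tall promoter peaks is not weighted to height or length, so height, a selection value, enters its shares. In it, 19.0% (16.7 to 21.5) of peaks centred 400 to 600 bp downstream had no footprint. For peaks centred in the 200 bp upstream of the start site it was 0.489% (0.348 to 0.669). On the upstream side the share reached 6.92% (4.75 to 9.68) at 600 to 800 bp. Of the 136 promoter sites upstream of or at the start site, 37 lay downstream of the 5′ end of another annotated gene within 1500 bp.

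**Figure D3:**
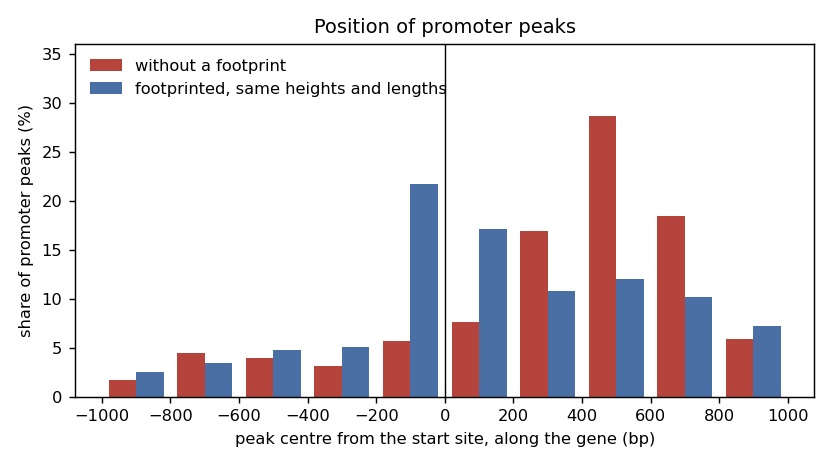
Centres of promoter peaks by distance from the nearest coding start site (bp, positive in the direction of transcription), as a share (%) of the promoter sites without a footprint (red) and of footprinted promoter peaks weighted to the same heights and lengths (blue). The bin from 400 to 600 bp held 28.7% and 12.04%, and the 200 bp upstream of the start site 5.65% and 21.8%.

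Nearly all of the sites stood next to a taller peak. Another peak taller than the site lay within 1000 bp in both replicates for 806 sites (91.2%, 89.1 to 93.0), against 24.8% of the comparison. These neighbours had a median height of 5.62 in replicate 1 and 4.36 in replicate 2, and were a median of 5.67 and 5.13 times as tall as the site. The median gap between the edges was 340 bp in each replicate. A footprint touched 804 of the 806 neighbours, with a median of 6 footprints each in both replicates. Footprints were general at such heights: of all tall shared peaks 1.53% had none, and with a mean height over 3 it was 1 of 9853. The count therefore says only that most sites without a footprint lay within 1000 bp of a footprinted peak. At 497 of the 690 promoter sites the taller neighbour overlapped a coding start site. Of the 131 distal sites with a taller neighbour, that neighbour overlapped a coding start site at 2 and the 5′ end of any annotated gene at 17.

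The share of tall shared peaks without a footprint moved with the height of the neighbour relative to the peak. The peak's own height, a selection value, enters this ratio, and the shares next given are not weighted to height or length. Where the tallest peak within 1000 bp was under 0.5 times as tall, 0 of 7352 peaks lacked a footprint, with an interval of 0 to 0.0502% (the limit of 3 counts is 0.0408%). The share was 1.03% (0.749 to 1.38) at 1 to 2 times, 11.4% (10.1 to 12.8) at 2 to 4 times, 34.3% (31.5 to 37.3) at 4 to 8 times and 51.7% (45.5 to 57.8) at 8 times or more. Where 1 or both replicates had no other peak within 1000 bp it was 0.157% (0.119 to 0.203). Within bands of the peak's mean height the order was the same from below 1 up to 8 times. At 0.64 to 0.8 the share was 1.28% (0.587 to 2.42) below 1, 3.12% (1.91 to 4.77) at 1 to 2, 17.8% (14.2 to 21.9) at 2 to 4 and 41.6% (35.7 to 47.8) at 4 to 8 times. At 0.8 to 1 it was 0.647% (0.296 to 1.22), 1.80% (1.05 to 2.87), 16.5% (13.8 to 19.6) and 40% (34.8 to 45.3). At 1.5 to 2 it was 0 of 1866 below 1 (interval 0 to 0.197%) and 0 of 497 at 1 to 2 times (0 to 0.739%), then 3.39% (1.47 to 6.57) at 2 to 4 and 13.5% (6.68 to 23.5) at 4 to 8 times. Among peaks of 0.64 to 0.8 that were 200 to 300 bp long it was 0.299% (0.00758 to 1.66), 2.74% (1.01 to 5.87), 16.9% (10.8 to 24.7) and 38.7% (27.6 to 50.6). Promoter and distal peaks had similar low shares up to 2 times (1.04% and 1.02% at 1 to 2 times). At 4 to 8 times the share was 38.0% (34.8 to 41.3) of promoter peaks and 18.2% (13.1 to 24.3) of distal peaks. Among peaks with a neighbour at least 4 times as tall, the share was 55.7% (48.7 to 62.5) at gaps of 200 to 300 bp and 15.6% (10.7 to 21.8) at 800 to 1000 bp.

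**Figure D4:**
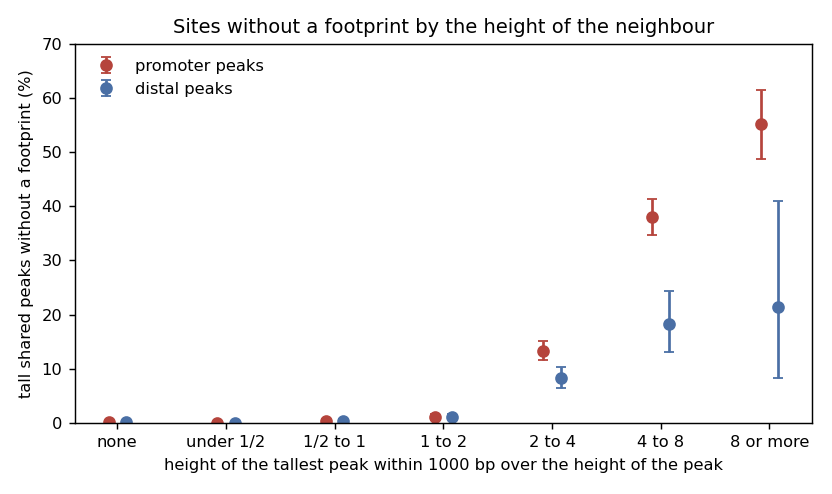
Share (%) of tall shared peaks without a footprint, by the height of the tallest other peak within 1000 bp over the height of the peak (the lower ratio of the replicates, none where a replicate had no such peak), for promoter (red) and distal (blue) peaks. Bars are exact 95% binomial intervals. The share was 0% in both kinds under 0.5 times and 55.2% and 21.4% at 8 times or more.

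The location and the neighbours overlapped as descriptions. A taller neighbour was present at 97.8% of the promoter sites, 82.5% of those in exons, 79.7% of the intergenic ones and 52.2% of those in introns. When the comparison was weighted also by the presence of a taller neighbour, its promoter share was 50.1% against 78.0% in the sites, so the difference was 27.9 percentage points in place of 51.5. Among distal peaks alone, 67.5% (60.5 to 74.1) of 194 sites had a taller neighbour against 12.8%. Footprints lay within 500 bp of the edge of 93.2% of the sites, and within 500 bp outside 56.1% of the comparison peaks. With weighting by promoter and taller neighbour these shares were 93.2% and 86.8%. The part of the neighbour in the absence of footprints was not tested.

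The deposited false discovery rate of the local cut rate had, on average over the sites, a central rise and a stronger signal to the side. At the centre its mean −log10 was 6.57 in the sites and 6.38 in the comparison in replicate 1, and 5.23 in each in replicate 2. At 200 bp upstream along the genome the mean was 4.81 in the sites and 2.31 in the comparison in replicate 1, and 3.87 against 1.72 in replicate 2. At 400 bp it rose to 11.1 in the sites against 1.502, and to 8.95 against 1.14. The most significant value within the peak had a median −log10 of 6.69 (6.48 to 6.94) in the sites and 6.04 in the comparison in replicate 1, and of 5.67 (5.37 to 5.92) and 5.08 in replicate 2. In distal peaks alone the medians were 5.55 (4.68 to 6.14) against 5.41 and 4.65 (4.13 to 5.01) against 4.69, and in peaks that stood alone 3.83 (2.55 to 5.31) against 2.81 and 3.15 (2.61 to 3.81) against 3.52, so in these the difference was within the interval. In the shorter, stricter peak lists 779 of the sites were touched by a replicate 1 peak and 781 of their partners by a replicate 2 peak.

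**Figure D5:**
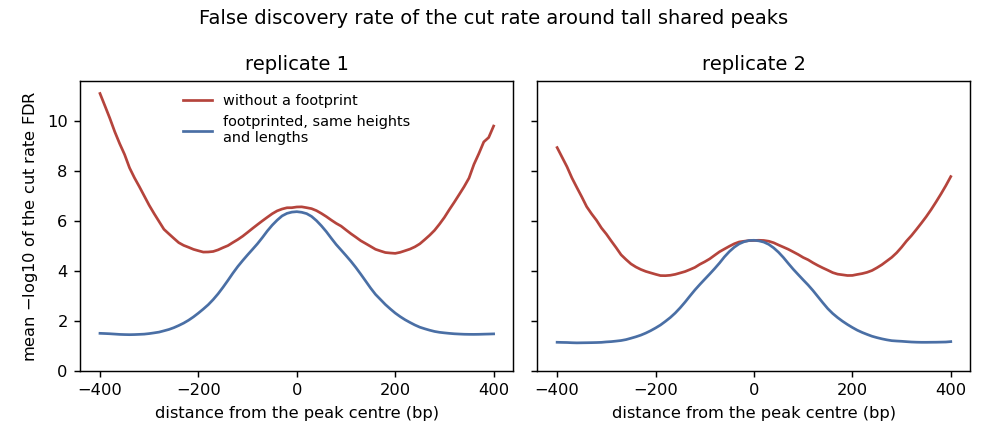
Mean −log10 of the deposited false discovery rate of the cut rate by distance (bp) from the peak centre, for the sites without a footprint (red) and footprinted peaks weighted to the same heights and lengths (blue), in replicate 1 (left) and replicate 2 (right). Both have a central rise of 6.57 and 6.38 in replicate 1. The red curve climbs again to 11.1 at 400 bp while the blue one falls to 1.502.

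The sequence of the sites was rich in G, C and CpG. The median GC content was 60.8% (60 to 61.7) against 53.6% in the comparison, and higher in the sites on 19 of 20 chromosomes. The ratio of observed to expected CpG was 0.694 (0.667 to 0.717) against 0.346, higher on 20 of 20. The composition criteria of CpG islands (GC over 50% and a CpG ratio over 0.6), applied here with no length limit, were met by 58.0% (54.7 to 61.3) against 22.2%. Promoters carry CpG islands, and among promoter peaks alone the GC content was 62.5% in the sites and 62.6% in the comparison. The CpG ratio among promoter peaks was 0.742 (0.724 to 0.768) against 0.668, and 68.8% (65.2 to 72.3) against 56.7% met the island criteria. Where a taller neighbour was also required, the ratio stayed at 0.742 against 0.667. Among distal peaks 19.6% (14.2 to 25.9) against 7.66% met the criteria.

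Words of 6 bases in at least 5% of either set, counted on both strands, gave the same picture. The 5 with the highest share in the sites relative to the comparison all held CpG: CCGTCG (10.6% against 3.87%), CGACGA (6.56% against 2.41%), CGGCCG (22.5% against 8.29%), CGTCGC (14.6% against 5.42%) and CGCGAC (12.6% against 4.71%). The 5 lowest were rich in A and T: ACATAT (1.92% against 5.83%), ATGTTA (2.15% against 5.68%), CAATTA (2.83% against 7.45%), AACATA (2.26% against 5.91%) and AATTAG (3.28% against 8.45%). Among promoter peaks alone the highest was ACTTCG (9.42% against 4.69%) and the lowest ACGTCA (3.04% against 5.10%), the core letters of the cyclic AMP response element.

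Consensus matches of several factors known for clear footprints or for neuronal enhancers were rarer in the sites over all locations, but not all of these differences held within promoters or beside a taller neighbour. The CTCF pattern, bound by the insulator protein, matched 2 of 884 sites (0.226%, 0.0274 to 0.815) against 2.67% of the comparison. Both were promoter sites, at Nit2 with heights of 0.807 and 0.891 and at Ccdc142 with 1.26 and 1.21, and are named here after their values were seen. The CTCF share was 0.290% (0.0351 to 1.04) against 1.21% in promoter peaks, and 0 of 194 (0 to 1.88) against 4.16% in distal peaks. In promoter peaks with a taller neighbour it was 0.298% (0.0361 to 1.07) against 0.795%, within the interval. The NEUROD E-box CAGATGG was in 5.32% (3.93 to 7.01) against 16.2%. The NFI letters TTGGCA, part of the full NFI site, were in 14.5% (12.2 to 17.0) against 23.98%, and the AP-1 pattern in 3.85% (2.68 to 5.33) against 8.05%. In promoter peaks alone the NFI letters were in 14.6% (12.1 to 17.5) against 13.7% and AP-1 in 3.04% (1.89 to 4.61) against 3.85%, so neither interval excludes the comparison. In distal peaks the NFI letters were in 13.9% (9.38 to 19.6) against 24.01%, while AP-1, at 6.70% (3.62 to 11.2) against 7.88%, did not differ beyond the interval. In distal peaks with a taller neighbour AP-1 was the higher in the sites, at 8.46% (4.30 to 14.6) against 6.13%, again within the interval. The NFI letters stayed rarer there, at 14.6% (9.03 to 21.9) against 22.5%. CTCF matched 0 of 130 of those sites (0 to 2.80) against 3.43%, also beyond the interval. The octamer ATGCAAAT of POU factors matched 2 sites (0.226%) against 1.91%, and the RFX letters GTTGCCATG 1 site (0.113%) against 1.35%. POU stayed rarer in promoter peaks alone, at 0.145% (0.00367 to 0.805) against 1.245%. With a taller neighbour required there it was at 0.149% (0.00377 to 0.828) against 0.798%, within the interval. Distal peaks had POU at 0.515% (0.013 to 2.84) against 1.67%, also within it. RFX was within the interval in promoter peaks (0.145%, 0.00367 to 0.805, against 0.782%) and in distal peaks (0 of 194, 0 to 1.88, against 1.3005%). No site matched the NRF1 letters GCGCATGCG, the MEF2 pattern, the full NFI pattern or the ZNF143 letters ACTACAATT, where the comparison had 0.391%, 0.573%, 0.0737% and 0.0420%. For a count of 0 of 884 the exact interval reaches 0.416%, and the simpler limit of 3 counts is 0.339%. The MEF2 share of the comparison lay above both and that of NRF1 between them, and for the other patterns a difference was not detectable. Within promoter peaks (0.417%, interval of the sites 0 to 0.533) and within distal peaks (0.421%, 0 to 1.88) the MEF2 difference was not detectable either. NRF1 in promoter peaks, at 0 of 690 against 0.541%, lay just beyond that interval. The cyclic AMP response element TGACGTCA was in 0.145% (0.00367 to 0.805) of promoter sites against 0.962%. With a taller neighbour required in promoter peaks, both were within the interval (comparison 0.361% and 0.710%).

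A few matches were as common or more common in the sites. SP/KLF was in 7.58% (5.92 to 9.53) against 5.03%, and YY1 in 1.02% (0.467 to 1.92) against 0.386%. All 9 YY1 matches were in promoter sites. Among promoter peaks YY1 was in 1.30% (0.598 to 2.46) against 0.588%, and with a taller neighbour required in 1.34% (0.615 to 2.53) against 0.428%. The nuclear receptor core AGGTCA was in 11.4% (9.40 to 13.7) against 9.79%. Among promoter peaks the order for SP/KLF turned, at 8.55% (6.57 to 10.9) against 12.5%, and with a taller neighbour required on both sides it was 8.79% (6.76 to 11.2) against 8.98%. Among distal peaks SP/KLF stayed higher in the sites, at 4.12% (1.80 to 7.96) against 1.43%. With a taller neighbour required there it was 5.38% (2.19 to 10.8) against 3.42%, within the interval. The E-box in promoter peaks was at 4.64% (3.19 to 6.48) against 7.42%, and in distal peaks at 7.73% (4.39 to 12.4) against 17.6%. With a taller neighbour required it was at 4.62% (3.16 to 6.49) against 6.02% in promoter peaks and at 7.69% (3.75 to 13.7) against 13.5% in distal peaks, both within the interval. Letters rich in A and T were rarer in the sites over all locations: the TATA box letters TATAAA were in 3.17% (2.11 to 4.55) against 7.22%, the homeobox letters TAATTA in 1.92% (1.12 to 3.06) against 4.98%, the SOX letters ACAATGG in 2.15% (1.30 to 3.34) against 3.88% and the GATA letters AGATAA in 5.77% (4.33 to 7.52) against 7.93%. In promoter peaks alone and in distal peaks alone the intervals of these 4 included the comparison. All patterns were searched on both strands of the whole peak.

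Repeated sequence was about as frequent in the sites as in the comparison. A word of 36 bases found more than once in the assembly occurred in 45 sites (5.09%, 3.74 to 6.75) and in 4.58% of the comparison, and was higher in the sites on 9 of 20 chromosomes. With words of 24 bases the shares were 17.0% and 17.6%, and with 76 bases 1.24% and 0.790%. In 6 sites (0.679%) at least 50% of the bases were soft-masked repeats, against 1.47%.

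The tallest site, site 1, reached 3.37 in replicate 1 and 2.83 in replicate 2, and no other site had a mean height over 3. It lies 11825 bp upstream of Npas4, which encodes a transcription factor induced by neuronal activity. Its neighbour, 80 bp away in replicate 1, was 6.75 and 4.40 tall and held 5 footprints in each replicate. Both replicates thus had the same pair, a footprinted CpG-rich peak with 20 CpG and a shorter site with 1 CpG and none of the footprints.

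Site 2 (chr15:31602021-31602220), with heights of 2.19 and 2.07, is centred 3 bp from the start site of Fam173b, a mitochondrial lysine methyltransferase gene, and is among the 74 that overlap a start site. Site 3 had 2.23 and 1.69 and lies upstream of Cadm1, a synaptic cell adhesion gene, with a neighbour of 7.70 and 5.89. Site 5 had 1.94 and 1.61 and lies upstream of Rfx3, a regulator of cilium genes. Its nearest footprints were 11 and 2 bp beyond its edge, so it belongs to those that a small shift of the edge would change. Site 6 had 1.90 and 1.58 and is centred 413 bp downstream of the start site of Ibtk, with a neighbour of 8.93 and 9.49. Site 8 (chr12:44269301-44269660) had 1.79 and 1.63, centred 333 bp into Pnpla8, a phospholipase gene, and site 10 (chr3:88424701-88424940) had 1.80 and 1.48, centred 286 bp into the mitochondrial carrier gene Slc25a44. In each of these promoter sites the neighbour was more than 2 times as tall in both replicates.

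The tall intron sites were of several kinds. Site 7, in Arid1b, a subunit gene of a chromatin remodelling complex, had 1.67 and 1.75, a GC content of 36% and, in replicate 1 only, a lower peak of 0.801 within 1000 bp. Site 9 (chr2:30659261-30659640) had 1.82 and 1.54 beside a neighbour of 12.4 and 9.78. Site 60 had 1.37 and 1.19 and begins 1066 bp from the start site of the zinc transporter gene Slc39a10, just past the promoter limit. Site 66 (chr4:106922081-106922140), in Ssbp3, had 1.39 and 1.12 and is 60 bp long with no other peak within 1000 bp. Site 87 (chr16:42875981-42876420) lies in Zbtb20, a transcription factor gene that patterns hippocampal neurons. It had 1.57 and 0.878, a GC content of 77.5% and a neighbour of 12.5 and 9.74, and its log2 ratio of replicate 2 to replicate 1 (-0.84) was among the 5 lowest.

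Intergenic sites after site 1 were site 4 (1.92 and 1.90), 427875 bp from the nearest coding start site, and site 15 (chr9:110934001-110934060, 1.52 and 1.61). Both are 60 bp long with no other peak within 1000 bp, and their nearest footprints lay 7 and 3 bp and 10 and 9 bp beyond the edge. Site 21 (chr1:23256821-23257000) had 1.60 and 1.42, and site 26 (chr11:48855541-48855760) had 1.67 and 1.28. Unlike sites 4 and 15, these had taller neighbours, of 6.07 and 4.88 and of 4.92 and 5.26.

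The 3 longest sites were all GC-rich promoter sites downstream of a start site. The longest, 920 bp at Ell2, a transcription elongation factor gene, had heights of 0.912 and 0.646 and a GC content of 66.1%. A 900 bp site at Tlnrd1 had 0.715 and 0.762, and an 880 bp site at Rsf1, which encodes a chromatin remodelling protein, had 1.08 and 0.768. Such long, low sites stretched over the first part of the gene, with centres 691, 1314 and 484 bp from the start site.

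Height differed between the replicates by a median log2 ratio (replicate 2 to replicate 1) of -0.16 in the sites and -0.21 in all footprinted tall shared peaks, so replicate 1 had the taller peak in most of both. The ratio was highest at the septin gene Sept8 (0.847 and 1.58, log2 ratio 0.90), in Col4a2 (0.75), at Ripor2 (0.56), at Zfp281 (0.52) and at Ybx3 (0.50). It was lowest at Zranb3 (1.75 and 0.923, -0.92), next to Egr3 (-0.85), in Zbtb20 (-0.84), at Nlgn2 (-0.82) and at Btbd17 (-0.82). Even these extremes stayed within 2 times, and the rule itself bounds the ratio of low peaks from below.

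The 690 promoter sites fell to 639 protein-coding genes, which is 5.49% of the 11635 genes with a tall shared promoter peak. At 47 genes there were 2 or more and at 4 genes 3. The genes with 3 sites were Ints6, Pknox1, Wee1, Tle4 and, with 1 at the promoter and 2 in exons, Cpeb2. In Wee1, a kinase gene of the cell cycle, the 3 rows overlap in turn and share 1 partner in replicate 2 of height 0.672, so they are 1 region downstream of a start site peak of 7.65 and 6.35. The 3 rows of Tle4, a co-repressor gene, likewise share a partner of 0.723 beside a peak of 19.2 and 13.8, the tallest neighbour among these genes. Ints6 and Pknox1 each had overlapping rows downstream and 1 separate site upstream of the same start site peak (11.5 and 8.26 at Ints6, 11.6 and 8.57 at Pknox1), so sites flanked it on both sides. Cpeb2, which encodes a regulator of mRNA translation, had 3 rows that do not overlap, the first pair with 1 replicate 2 partner, centred 1098, 1528 and 1948 bp downstream, with heights of 0.807 and 0.788, 0.794 and 0.788, and 0.702 and 0.775.

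Genes with 2 sites included Rfx3, where sites 5 and 24 share a replicate 2 partner of 1.61, and the chromatin genes Arid1b, Kat6b and Kmt2e. At Kat6b, a histone acetyltransferase gene, a 220 bp site of 1.70 and 1.37 overlapped the start site, beside a peak of 14.2 and 12.1. At Kmt2e, sites of 1.76 and 1.09 in replicate 1 with 1 replicate 2 partner of 1.21 lay 982 and 552 bp downstream. Sesn3, a sestrin gene of the stress response, had a site of 1.46 and 1.45 at an annotated start site and another of 1.05 and 0.891.

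Of 160 genes in 18 lists of cell type markers, synaptic genes, transcription factors and general genes, all of which were matched by symbol, 12 had a site, with 14 sites in all. These lists are descriptions, to be read beside the 1.53% of all tall shared peaks. Of 10 housekeeping genes, 2 had a promoter site. At Eef1a1, a translation elongation factor gene, the site was 1.61 tall in each replicate and centred 763 bp downstream, and at Gapdh, a glycolysis gene, it was 1.19 and 0.981 and centred 792 bp downstream. The cohesin genes Smc1a (1.35 and 1.39) and Smc3 (1.38 and 1.07) also had sites downstream, 473 and 513 bp in. These 4 sites had neighbours of 3.79 to 10.6 and were among 21 and 22 tall shared peaks of the respective lists, of which 9.52% and 9.09% had no footprint. Each of these shares is only 2 peaks. All 4 are promoter sites, and of all tall shared promoter peaks 3.96% had no footprint.

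Among synaptic genes, 3 of 10 of the postsynaptic list had a promoter site, and these sites are 2.21% of the 136 tall shared peaks of that list. Of all genes with a tall shared promoter peak 5.49% had a promoter site, and of all tall shared promoter peaks 3.96% had no footprint. A count of 3 is too small to read a difference from. The 3 genes were Dlg2, a scaffold gene (1.33 and 0.994), Nlgn2, an adhesion gene of inhibitory synapses (1.254 and 0.710), and Shank2, a scaffold gene (0.893 and 0.659). At Syt1, which encodes the calcium sensor of transmitter release, 1 site lay at the promoter (1.12 and 1.06) and 1 in an intron (1.24 and 0.710). The intron site had no other peak within 1000 bp and its nearest footprints were 19485 and 30664 bp away. In the excitatory neuron list a site lay at the transcription factor gene Neurod2 (0.984 and 0.684), and in the list of forebrain transcription factors at Id2 on either side of the start site (0.886 and 1.19, 0.689 and 0.833) and in Zbtb20. Tnr, an extracellular matrix gene of oligodendrocyte precursors, had an exon site of 0.755 and 0.672. None of the 37 tall shared peaks at or in 11 immediate early genes was a site. Npas4 is in that list, but site 1, 11825 bp upstream of it, counts as intergenic. Egr3, with a site that begins 1163 bp upstream, is not in the list. There was also none at the genes listed for dentate granule cells (10 peaks), CA1 (23), CA2 and CA3 (41), inhibitory neurons (14), astrocytes (38), oligodendrocytes (30), microglia (11), endothelium (10), mural cells (7) or choroid plexus (4). Each of these lists held few peaks (4 to 41), and no difference is read from a count of 0.

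Sites that stood alone lay mostly in introns, as did footprinted peaks that stood alone. In 42 sites no other peak lay within 1000 bp in either replicate, which is 4.75% of the sites (3.45 to 6.37) against 46.1% of the comparison, and 0.141% of the 29781 tall shared peaks that stood alone. They had medians of 0.860 and 0.772 in height and of 99 bp in length, and 29 of them lay in introns, 8 in intergenic sequence, 3 at promoters and 2 in exons. The GC content was 51.8% (48.3 to 53.3) against 52.8% in footprinted peaks that stood alone, weighted to the same heights and lengths. The nearest footprint was within 200 bp at 31 of the 42, 28 of them within 50 bp, and over 1000 bp away at the other 11, with none in between. Of the 31 with a near footprint, 26 were shorter than 150 bp, such as sites 4 and 15, and 5 were longer. The 11 without one held 8 peaks of 150 bp or more, among them the intron site of Syt1 and, named after its values were seen, a 175 bp site near Pcnx (0.722 and 0.736) with its nearest footprints 21150 and 21104 bp away.

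Both replicates gave the same picture when taken alone. In replicate 1, 5.2% of the 72543 tall peaks had no footprint of their own, and in replicate 2, 3.72% of the 61917. Of these larger sets 57.4% ± 3.58 (SD, n = 2) lay at promoters against 21.3% ± 1.84 of the footprinted peaks weighted to them. The GC content was 57.8% ± 0.407 against 52.99% ± 0.306, the CTCF share 0.329% ± 0.0967 against 2.84% ± 0.0621, and the E-box share 7.98% ± 0.0349 against 15.7% ± 0.501. Each difference had the same direction in both replicates. The replicate 1 set contains the 884 sites by the rule, so it is not independent of them. The SD describes only the spread of these samples, which carry the same donor label. Peaks with a footprint in only 1 replicate (2201) lay between the sites and the 54812 with a footprint in both: 78.1%, 51.7% and 23.1% were at promoters, 91.2%, 64.7% and 19.95% had a taller neighbour, and 5.32%, 9.40% and 16.7% held the E-box, weighted in 40 bp and 0.5 log2 strata.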

How the data were processed

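DNase-seq peaks, cut rate false discovery rates and footprints of 2 samples were used as deposited. Per the deposited README files the authors called peaks per sample from that sample's filtered alignments to mm10, and made footprints from the alignments, the false discovery rate file and 2 further files. Aligner, callers and versions: not given in the sources used here. Mapping of CAST/EiJ reads was not analysed here. The deposited peak height has the unit signal, with its scale not stated. The deposited false discovery rate is a q-value (p-value unit) listed only at 0.05 or less, so bases without a row count as 0 on the −log10 scale. The authors' footprint value is the constant 0.01 in every row, so footprints were used as positions only. The edges of peaks and footprints decide membership.

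A site's partner was the replicate 2 peak with the largest overlap (at least 1 bp). Footprinted tall shared peaks were weighted to the sites by strata of length (20 bp) and mean log2 height (0.25); all 884 sites had comparison peaks (35941 with a weight). On 20 simulated sets a planted difference of 20 percentage points came back as 20.21 ± 1.4, and as 24.8 without weights. Locations came from GENCODE M21, in the order promoter, exon, intron, intergenic, and sequence from the GRCm38 assembly, whose chromosome lengths fit the files. Repeated words were counted over both strands of the assembly. Nothing was tested: intervals are exact binomial ones, and those of medians are from order statistics. The sites named were the 10 tallest, the 5 tallest without a repeated word at promoters, in introns and in intergenic sequence, the 3 longest, the 5 highest and 5 lowest replicate ratios, the genes with most sites and up to 3 sites per gene list. The sites and the lists were chosen with earlier results of these data known. Alternatives changed the overlap, peak list, height limit, footprint reach, comparison, strata, windows and replicates. Python 3.11.15, numpy 2.4.6, pandas 2.3.3, scipy 1.17.1 and numba 0.67.0 were used.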

Additional observations from a re-analysis of the deposited data

How the results depend on the processing

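No alternative reversed a direction that the intervals supported, in 78 values: 46 stayed within the interval of the reported value (within 1.5 times for the count) and 32 moved. No paired analysis was possible because there is 1 group. The number of sites was 570 with 50% reciprocal overlap and 152 at a height of 1.0 or more, and 2303 to 3774 with either replicate alone. The promoter difference (51.5 percentage points) was 55.2 with the shorter lists, 47.9 at a height of 1.0, 54.3 with a wider footprint reach, 54.8 against peaks footprinted in both replicates, 37.5 with a 500 bp promoter window and 34.8 to 37.3 with a replicate left out. The GC difference (7.19) was 8.15 with the shorter lists, 6.09 at a height of 1.0 and 4.70 to 4.84 with a replicate left out. The CTCF difference (-2.44) was -3.52, -3.05 and -2.78 with the shorter lists, the height of 1.0 and peaks footprinted in both, and -7.67 without weights. The nearby footprint difference (37.2) was 40.04 with 50% overlap, 31.3 with the shorter lists, 35.1 with a wider reach, 40.3 against peaks footprinted in both, 39.4 without weights and 12.5 within 200 bp. Alternatives chosen after seeing the data weighted also by a taller neighbour, giving 27.9 for promoters, 3.96 for GC, -1.80 for CTCF and 9.28 for nearby footprints. With promoter weighting as well these were 1.09 for GC, -1.35 for CTCF and 6.35 for nearby footprints, so most of the GC and nearby footprint differences went with location and neighbours. Leaving out overlapping rows gave 775 sites and no moved value. The repeated word difference (0.51) was below 0 in 6 alternatives, from -0.63 to 1.254, all within its interval. The unknown depth, the 2 samples and the number of sites limit what rare motifs can show.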
